A study of Mus musculus with 30 samples.

Results

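The genes described here are 44 genes of mitosis, the kinases, cyclins, spindle checkpoint proteins, kinetochore proteins, kinesins and condensins that divide the chromosomes between daughter cells. They were taken by name from a fixed list, by matching the Ensembl identifiers in the count tables, without their version, to mouse gene symbols. This list and the wider lists below were chosen with earlier results of these data known. The shares called among them are thus not an independent test. Of the 49089 identifiers counted in each library these 44 were all found, and all 44 were among the 11368 genes with enough reads to be tested. The levels were measured by RNA sequencing in AML12 cells, an immortalised line of mouse hepatocytes. Control cells, which the study transfected with a non-silencing siRNA, were compared with cells in which siRNA had lowered FoxK1 (FoxK1 KD), FoxK2 (FoxK2 KD) or both (DKD). FoxK1 and FoxK2 are forkhead transcription factors. All cells were kept without serum overnight in a medium with albumin. They then received either no hormone (basal) or insulin at 100 nM for 6 h. There were 4 libraries in each group except Control insulin and DKD insulin, which had 3. Every group was thus a transient knockdown, or its control, in 1 starved cell line, and the labels do not say whether the libraries of a group came from separate cultures. The p-values therefore measure the spread between libraries, which may be technical.

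Cells commit to mitosis when Cdk1, bound to cyclins A and B, is switched on by Cdc25 phosphatases, with Plk1 and the Aurora kinases acting beside it. Microtubules then attach to the chromosomes at kinetochores, a checkpoint of Bub and Mad proteins delays separation until every chromosome is attached, and kinesins and the central spindle part the cell. The genes for these proteins are mostly silent in resting cells and are transcribed together late in the cell cycle. Much of this control is known to run through the MuvB complex, which binds a short promoter element called the cell cycle genes homology region (CHR), and through B-Myb (Mybl2), FoxM1 and the CCAAT-binding factor NF-Y. In bulk RNA, fewer cells near mitosis and less RNA in each such cell cannot be told apart.

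The promoters are shown because the genes share letters there that the choice of genes did not use. RefSeq windows from 250 bases before to 50 bases after a transcription start (GRCm38.p6) were available for 36 of the 44 genes, in 41 windows. Aurkb, Ccna2, Cdc25c, Incenp, Kif20a, Smc4, Spc24 and Tpx2 had no entry. Below are the 120 bases before the start, taking whichever of the RefSeq and GENCODE starts lies farther upstream, for the kinase gene Cdk1 and for 4 genes called lower in both FoxK1 KD and DKD in basal cells. Capitals mark the CHR core TTTGAA or TTCGAA and the CCAAT box CCAAT, on either strand.
Cdk1, chr10:69352939-69353058, minus strand: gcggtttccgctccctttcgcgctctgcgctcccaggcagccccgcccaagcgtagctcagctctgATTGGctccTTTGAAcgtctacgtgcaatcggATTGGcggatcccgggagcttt
Top2a, chr11:99024190-99024309, minus strand: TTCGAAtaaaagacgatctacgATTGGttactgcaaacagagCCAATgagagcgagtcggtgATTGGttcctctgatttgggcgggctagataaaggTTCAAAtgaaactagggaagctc
Ccnb1, chr13:100786571-100786690, minus strand: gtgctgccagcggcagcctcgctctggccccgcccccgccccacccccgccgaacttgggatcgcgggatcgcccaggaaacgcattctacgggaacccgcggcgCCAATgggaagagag
Plk1, chr7:122159315-122159434, plus strand: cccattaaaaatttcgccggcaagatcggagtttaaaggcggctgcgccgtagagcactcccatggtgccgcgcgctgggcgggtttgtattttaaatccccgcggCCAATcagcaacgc
Mad2l1, chr6:66535101-66535220, plus strand: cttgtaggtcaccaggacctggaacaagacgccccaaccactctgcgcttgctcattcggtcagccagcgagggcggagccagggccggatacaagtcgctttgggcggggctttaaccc
The printed stretch held 1 CHR core and 2 CCAAT boxes for Cdk1, and 2 CHR cores and 3 CCAAT boxes for Top2a. It held 1 CCAAT box for Ccnb1, 1 for Plk1 and no match for Mad2l1. The whole windows held 2 CHR cores and 3 CCAAT boxes for Cdk1, and 4 and 6 for Top2a. They held 0 and 2 for Ccnb1, 1 and 1 for Plk1, and 0 and 0 for Mad2l1. The CHR core of Plk1 lay after the RefSeq start, at base 31.

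Over whole windows, 29 of the 36 genes (80.6%) had a CHR core on either strand, against 16.2% of the 8740 tested genes that had a window and 21.7% of all 27025 genes. A CCAAT box was found in 28 of the 36 (77.8%), against 43.6% of tested genes and 41.1% of all genes. Both elements stood in the windows of 25 genes (69.4%), against 6.99% and 8.61%, and a CHR core with 2 or more CCAAT boxes in those of 17 (47.2%), against 2.83% and 2.68%. The forkhead core, searched as GTAAACA or ATAAACA on both strands, was found for 4 genes (11.1%), Nuf2, Ect2, Kif2c and Cenpk, against 5.88% and 9.01%. The motifs searched do not overlap in their letters, and a match is a description of the sequence, not a binding site.

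**Figure D1:**
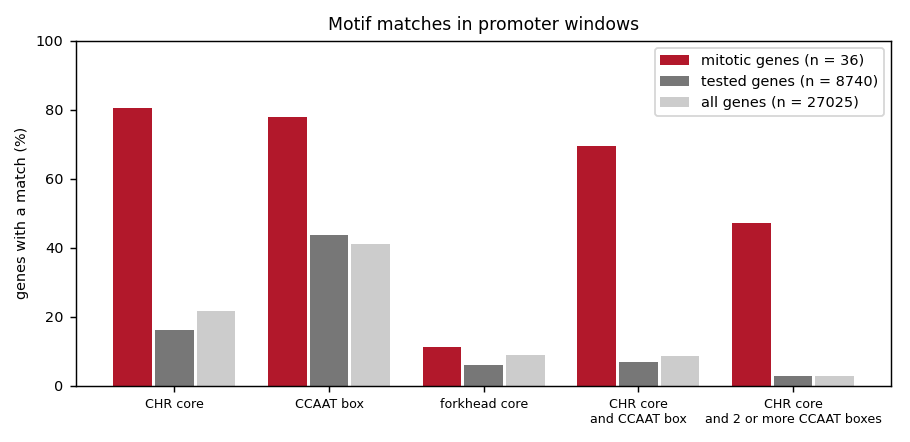
Percentage of genes (vertical axis) with at least 1 match to each motif or pair of motifs (horizontal axis) in a RefSeq promoter window, for the mitotic genes (red, n = 36), the tested genes (dark grey, n = 8740) and all genes (light grey, n = 27025). The red bars stand at 80.6% for the CHR core and 11.1% for the forkhead core.

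Total counts ranged from 2141460 to 5668270 per library. Levels are given as CPM, read counts scaled to the size of each library after adjustment by the TMM method. Foxk1 was lowered to 0.455 of Control in basal FoxK1 KD cells (edgeR adjusted p = 6.19e-08) and to 0.568 in basal DKD cells (adjusted p = 8.92e-06). Foxk2 was lowered to 0.338 in FoxK2 KD (adjusted p = 8.3e-15) and 0.357 in DKD (adjusted p = 8.15e-14). Foxk2 was also lower in basal FoxK1 KD, by 0.26 on the log2 scale, at an edgeR adjusted p below 0.05. In basal FoxK2 KD Foxk1 was at -0.23 without passing that threshold. Of 12 hepatocyte markers 9 were measured well enough to test, with Apoa1, Apoe and Fgb below the filter, while all 12 markers of fibroblasts, stellate cells, leukocytes and endothelium were below it. The summed CPM of the hepatocyte markers was 2531 ± 253 (SD, n = 4) in basal Control, 2483 ± 90.5 in FoxK1 KD, 2615 ± 87.3 in FoxK2 KD and 2840 ± 38.5 in DKD. Library 1 of basal Control stood apart: its mean absolute log2 deviation from its group's median was 0.304 over the tested genes, against 0.0983 to 0.18 in the other 29 libraries, and 0.28 against 0.0602 to 0.177 over the mitotic genes. Counts of called genes in basal comparisons that use it are given with and without it. The 12 basal libraries of Control, FoxK1 KD and FoxK2 KD were also below all 18 others for 52 genes, 10 of them pseudogenes, and above them for 83 genes. No mitotic gene was among these, but the rule asks for complete separation and does not show smaller shifts. Basal DKD lay on the side of the insulin libraries. In basal DKD against Control or FoxK1 KD, the knockdown therefore cannot be told apart from this split. The same holds for insulin against basal in Control, FoxK1 KD and FoxK2 KD. The cause of the split was not tested. The strand setting of the counting is not given in the sources used here, and 18 of the 44 genes are overlapped by an annotated gene on the other strand, whose reads may not be told apart from theirs.

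Levels were compared between genes as CPM per kilobase of exon. Top2a, the topoisomerase that untangles sister chromatids, had the highest level, 81.8 ± 7.48 CPM per kilobase (SD, n = 4) in basal Control. The cyclin gene Ccnb2 was next at 54.0 ± 8.07, and the spindle kinesin gene Kif11 followed at 42.6 ± 5.69. The lowest was Spc24, a subunit of the Ndc80 complex of the kinetochore, at 2.06 ± 0.752, which its spread did not part from Cdca8 (2.23 ± 0.116). Averaged over the 8 groups the same genes were at both ends, Top2a at 67.0 and Spc24 at 2.01 CPM per kilobase. Spc24 had only 556 reads in all 30 libraries, and 1 read in its lowest library. In basal cells Spc24 stood at 7.37, 3.25, 6.45 and 4.11 CPM in Control, at 3.62, 2.31, 5.18 and 1.87 in FoxK1 KD, at 3.70, 4.24, 4.97 and 3.74 in FoxK2 KD and at 4.59, 5.82, 0.463 and 5.14 in DKD. These groups overlapped.

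The sum over the 44 genes was 4697 ± 424 CPM (SD, n = 4) in basal Control, 4343 ± 141 in FoxK2 KD, 4049 ± 167 in FoxK1 KD and 3757 ± 190 in DKD. After insulin it was 4840 ± 171 (n = 3) in Control, 4590 ± 262 (n = 4) in FoxK2 KD, 4120 ± 165 (n = 4) in FoxK1 KD and 4021 ± 147 (n = 3) in DKD. Without library 1 basal Control was at 4777 ± 481 (n = 3). The order of the groups was the same in both states. All basal DKD libraries (3585 to 3934) were below all basal Control libraries (4233 to 5144), and FoxK1 KD (3858 to 4249) overlapped Control only at its highest library. After insulin neither FoxK1 KD (3890 to 4245) nor DKD (3852 to 4108) overlapped Control (4669 to 5011). FoxK2 KD overlapped Control in both states.

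**Figure D2:**
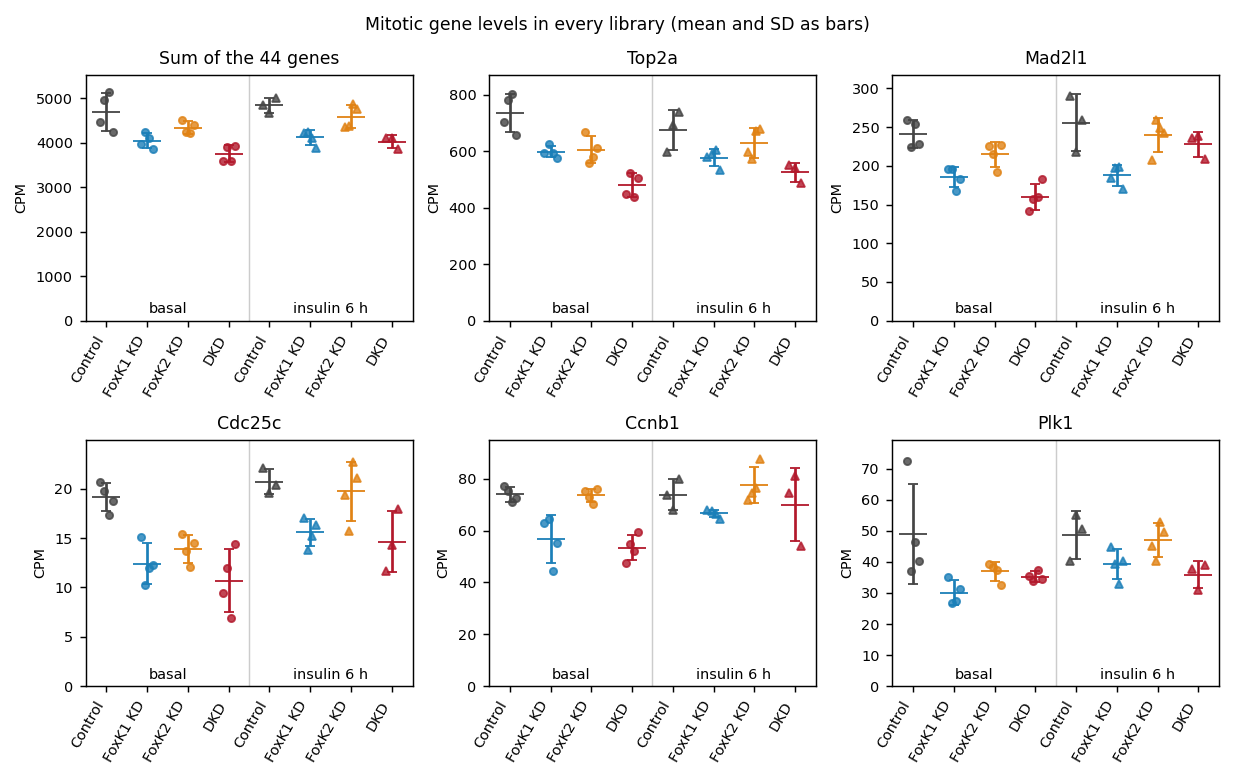
CPM (vertical axis, from 0) of the summed 44 genes and of the 5 genes called lower in both basal FoxK1 KD and basal DKD, with 1 point per library (circles basal, triangles insulin) and the mean and SD of each group as bars. The sum was lowest in basal DKD, 3757 ± 190 CPM, and library 1 of basal Control was high for Plk1 at 72.6 CPM.

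The first comparison asked whether siRNA against FoxK1, with which Foxk2 was also somewhat lower, changed these genes in basal cells. In FoxK1 KD 11 of the 44 were lower than in Control and none was higher, beside 4.71% of all tested genes lower and 3.39% higher. A gene was called lower or higher at an adjusted p below 0.05 in edgeR's quasi-likelihood test, adjusted by Benjamini-Hochberg over all tested genes. The median log2 fold change of the 44 was -0.20, against -0.01 over all tested genes, and 39 of them were below 0. In 13 of them every FoxK1 KD library lay below every Control library, as was so for 4.66% of all tested genes. The lower genes were mostly of 2 roles. Of 8 genes of mitotic entry 4 fell, the kinase genes Cdk1 (-0.38, SE 0.10) and Plk1 (-0.68, SE 0.15), the cyclin gene Ccnb1 (-0.39, SE 0.10) and the phosphatase gene Cdc25c (-0.60, SE 0.16). Of the 4 genes of the chromosomal passenger complex, which corrects wrong attachments, 3 fell. These were the kinase gene Aurkb (-0.51, SE 0.13) and the genes of its partners Incenp (-0.52, SE 0.11) and survivin, Birc5 (-0.36, SE 0.11), while Cdca8 was at -0.32 without passing the test. The others were the checkpoint genes Bub3 and Mad2l1 (both -0.38), the condensin gene Ncaph (-0.42) and Top2a (-0.30). None of the 11 genes of kinesins, the spindle and cytokinesis and none of the 8 centromere and kinetochore genes was called. In each of these roles 3 genes had an unadjusted p below 0.05, beside 23.5% of all tested genes.

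These calls in FoxK1 KD were small changes near the threshold. Without library 1 of basal Control 6 genes were lower, beside 1.66% of all tested genes lower and 1.94% higher. Aurkb (-0.35, edgeR adjusted p = 0.114), Birc5 (-0.26, adjusted p = 0.204), Bub3, Ccnb1, Cdk1 and Ncaph were no longer called. Plk1, Cdc25c, Incenp, Mad2l1 and Top2a were still called. With only the 8 libraries of both groups in the model, edgeR called none, beside 0.139% of all tested genes lower and 0.287% higher. In that fit 16 genes were at an unadjusted p below 0.05 and the median was -0.20.

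Cells with both factors lowered had more calls than FoxK1 KD in the fit of all libraries, among all tested genes as well as among the 44. With an offset for GC content and length, described below, 12 of the 44 were called in DKD and 16 in FoxK1 KD. The medians were then -0.17 and -0.22. In basal DKD 19 of the 44 genes were lower than in Control and none was higher, beside 10.8% of all tested genes lower and 10.3% higher. The median log2 fold change was -0.27, and 38 of the 44 were below 0. Every DKD library lay below every Control library for 10 of them, as was so for 8.78% of all tested genes. This comparison and that of FoxK1 KD share their Control libraries. None of the 4 chromosomal passenger genes was called, none having an unadjusted p below 0.05 (Aurkb 0.06, Birc5 -0.11, Incenp -0.17, Cdca8 0.17). Of the 8 centromere and kinetochore genes 4 fell, Cenpk (-1.02, SE 0.19), the kinesin-like motor gene Cenpe (-0.55, SE 0.11), Cenpf (-0.41, SE 0.12) and Nuf2 (-0.47, SE 0.12). Of the 7 genes of chromosome structure 4 fell, Top2a (-0.62, SE 0.08), the condensin genes Smc2 and Smc4 (-0.32 and -0.44) and Ncapg (-0.39). Of 11 genes of kinesins, the spindle and cytokinesis 5 fell, Hmmr (-0.54), Kif11 (-0.38), Kif20b (-0.37), the cytokinesis gene Ect2 (-0.35) and Tpx2 (-0.30), which activates Aurora A. The checkpoint genes Bub1 (-0.55), Mad2l1 (-0.59) and Ttk (-0.48) fell, and so did Cdc25c (-0.79), Plk1 (-0.47) and Ccnb1 (-0.46). Cenpk, a subunit of the constitutive centromere network, ranged from 18.04 to 23.8 CPM in Control and from 6.01 to 13.7 CPM in DKD, and thus did not overlap.

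Without library 1 of basal Control 21 genes were lower in DKD, beside 13.9% of all tested genes lower and 13% higher. Plk1 was the only one of the 19 no longer called (-0.23, edgeR adjusted p = 0.15). With only the libraries of both groups in the model 9 were lower, beside 6.16% of all tested genes. When library 1 was left out of that model as well 20 were lower, beside 15.3%. Fold changes in DKD moved with the GC content of the genes. The Spearman correlation between the log2 fold change and the GC content was 0.466 across all tested genes and 0.673 across the 44, which share these libraries, and the 44 had a median GC content of 46.2% against 49.3% for all tested genes. With an offset in each library for GC content and length, 12 of the 44 were lower in DKD, beside 7.79% of all tested genes lower and 8.14% higher, and Ncapg went to 0.00. Cenpf, Nuf2, Kif11, Kif20b, Ect2, Smc2, Smc4 and Ncapg were no longer called with the offset. Of the genes of chromosome structure called in DKD, only Top2a stayed called. The counts by role given above thus hold for the fit without the offset. In FoxK1 KD the same correlation was -0.217 and -0.313, and 16 were lower with the offset, beside 5.28% of all tested genes. When library 1 of basal Control was left out the correlations were 0.541 and 0.744 in DKD and -0.0898 and -0.223 in FoxK1 KD. Bub1, Ccnb1, Cdc25c, Cenpe, Cenpk, Mad2l1, Top2a and Ttk, 8 of the 19, were called in DKD in all 18 other fits that were made of that comparison.

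**Figure D3:**
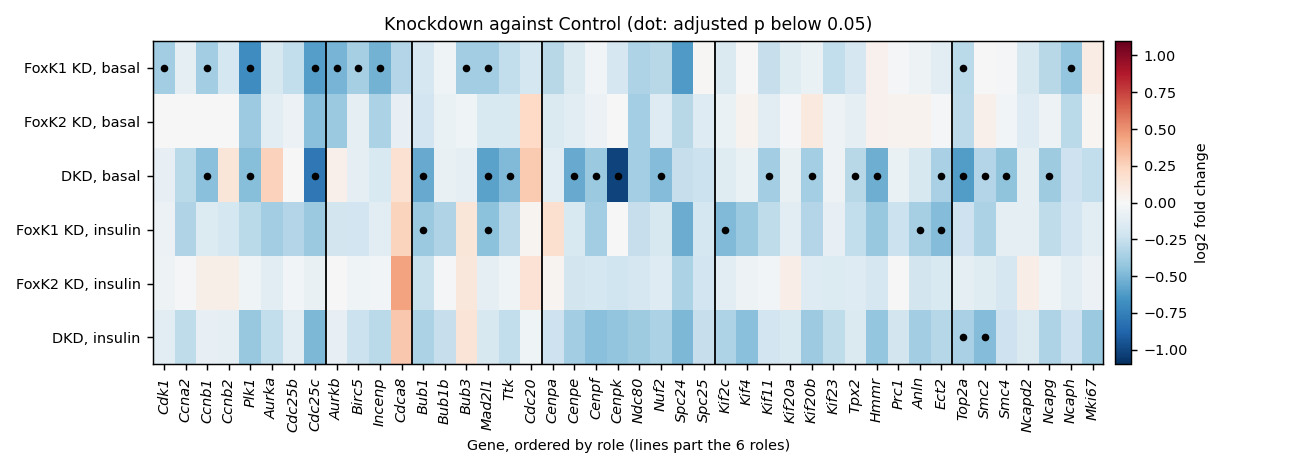
Log2 fold change (colour, blue lower and red higher) of the 44 genes (horizontal axis, by role) in each knockdown against Control (vertical axis), basal above and insulin below, with a dot where edgeR's adjusted p was below 0.05. The dots number 11 in FoxK1 KD and 19 in DKD in basal cells, and none in FoxK2 KD in either state.

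Top2a, Mad2l1, Cdc25c, Ccnb1 and Plk1 were called lower in both FoxK1 KD and DKD in basal cells, and their values are given library by library. Top2a (ENSMUSG00000020914.17, chromosome 11 from 98992943 to 99024189, minus strand) stood at 703, 783, 803 and 660 CPM in basal Control. It stood at 594, 626, 596 and 578 CPM in FoxK1 KD and at 668, 557, 582 and 613 in FoxK2 KD. In DKD it stood at 449, 525, 439 and 507 CPM. All FoxK1 KD and all DKD libraries were below all Control libraries, all DKD libraries were also below all FoxK1 KD libraries, and FoxK2 KD overlapped Control. The level was 0.812 of Control in FoxK1 KD (edgeR adjusted p = 0.0196) and 0.651 in DKD (adjusted p = 1.91e-06), with a direct difference between them of -0.32 (SE 0.08, adjusted p = 0.00465). After insulin Top2a stood at 596, 692.5 and 738 CPM in Control and at 580, 591, 603 and 536 in FoxK1 KD. It stood at 597, 573, 672 and 678 in FoxK2 KD and at 550, 540 and 489 in DKD. Only the DKD libraries were all below Control, at 0.779 of its level (adjusted p = 0.0471).

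Mad2l1 (ENSMUSG00000029910.14, chromosome 6 from 66535390 to 66547220, plus strand) encodes the checkpoint protein that holds back Cdc20. It stood at 259, 224, 254 and 228 CPM in basal Control and at 196, 195, 168 and 182 in FoxK1 KD. It stood at 226, 215, 191 and 226 in FoxK2 KD and at 141, 158, 159 and 183 in DKD. FoxK1 KD and DKD both lay wholly below Control, and FoxK2 KD overlapped it. The level was 0.769 of Control in FoxK1 KD (edgeR adjusted p = 0.00782) and 0.665 in DKD (adjusted p = 2.28e-05). After insulin Mad2l1 stood at 291, 218 and 259 CPM in Control, at 184, 197, 199 and 170 in FoxK1 KD, at 208, 259, 248 and 243 in FoxK2 KD and at 236, 238 and 209 in DKD. FoxK1 KD was again wholly below Control, at 0.733 of its level (adjusted p = 0.00611), while DKD overlapped Control.

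Cdc25c (ENSMUSG00000044201.9) encodes a phosphatase that activates Cdk1. It stood at 20.7, 19.8, 17.4 and 18.8 CPM in basal Control, at 15.2, 10.2, 11.998 and 12.3 in FoxK1 KD, at 15.4, 13.6, 12.1 and 14.5 in FoxK2 KD and at 9.48, 11.9, 6.94 and 14.4 in DKD. All 3 knockdowns lay below Control in every library, and FoxK2 KD, at -0.46 (SE 0.15, edgeR adjusted p = 0.192), did not pass the test. Its level was 0.658 of Control in FoxK1 KD (adjusted p = 0.0138) and 0.579 in DKD (adjusted p = 0.000725). After insulin Cdc25c stood at 22.1, 19.6 and 20.4 CPM in Control, at 17.0, 13.8, 15.2 and 16.3 in FoxK1 KD, at 19.4, 15.7, 22.8 and 21.1 in FoxK2 KD and at 11.7, 14.3 and 17.9 in DKD. FoxK1 KD and DKD were again wholly below Control, without passing the test (edgeR adjusted p = 0.20 and 0.192).

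Ccnb1 (ENSMUSG00000041431.16, chromosome 13 from 100778650 to 100786570, minus strand) encodes cyclin B of the mitotic kinase. It stood at 77.1, 75.3, 71.0 and 72.7 CPM in basal Control, at 62.9, 64.4, 44.5 and 55.4 in FoxK1 KD, at 75.3, 73.2, 70.5 and 76.1 in FoxK2 KD and at 47.7, 54.7, 52.3 and 59.3 in DKD. FoxK1 KD and DKD lay wholly below Control and FoxK2 KD overlapped it. The level was 0.765 of Control in FoxK1 KD (edgeR adjusted p = 0.0194) and 0.725 in DKD (adjusted p = 0.00205). After insulin Ccnb1 stood at 73.8, 68.0 and 79.9 CPM in Control, at 68.0, 67.6, 66.5 and 64.6 in FoxK1 KD, at 71.9, 74.5, 76.4 and 87.6 in FoxK2 KD and at 74.4, 81.3 and 54.2 in DKD. None of the knockdowns passed the test then.

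Plk1 (ENSMUSG00000030867.7, chromosome 7 from 122159439 to 122169873, plus strand) encodes Polo-like kinase. It stood at 72.6, 37.0, 46.4 and 40.4 CPM in basal Control, at 35.3, 26.7, 27.3 and 31.3 in FoxK1 KD, at 39.5, 38.4, 37.4 and 32.5 in FoxK2 KD and at 35.6, 33.7, 37.5 and 34.4 in DKD. The first Control library was far above the other 3, which lay between 37.0 and 46.4 CPM. FoxK1 KD lay wholly below Control, at 0.624 of its level (edgeR adjusted p = 0.00343), and DKD overlapped Control, at 0.724 (adjusted p = 0.0216). Without the first Control library the log2 fold change was -0.44 in FoxK1 KD (adjusted p = 0.0301) and -0.23 in DKD (adjusted p = 0.15). After insulin Plk1 stood at 40.3, 55.3 and 50.6 CPM in Control, at 44.7, 39.2, 33.0 and 40.5 in FoxK1 KD, at 45.2, 40.4, 52.8 and 49.8 in FoxK2 KD and at 37.8, 31.0 and 38.9 in DKD.

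The direct comparison of DKD with FoxK1 KD in basal cells asked how cells with both factors lowered differed from those with FoxK1 lowered. Foxk1 itself stood higher in every DKD library than in every FoxK1 KD library, by 0.32 on the log2 scale without passing the test (SE 0.13, edgeR adjusted p = 0.0582). Lowering of FoxK2 and this higher Foxk1 level cannot be told apart in the comparison. Of the 44 genes 8 were lower in DKD and 7 higher, beside 12.5% of all tested genes lower and 13.8% higher, and the median was -0.08. The kinetochore genes Cenpe (-0.39), Cenpf (-0.38) and Cenpk (-0.83), the chromosome genes Top2a (-0.32), Smc2 (-0.33) and Smc4 (-0.42), Hmmr (-0.59) and Bub1 (-0.37) were lower. Among the higher genes were 3 of the 4 chromosomal passenger genes, Aurkb (0.57), Cdca8 (0.49) and Incenp (0.35). The others were the entry genes Aurka (0.43), Ccnb2 (0.33) and Cdk1 (0.29), and Cdc20 (0.48), which activates the anaphase-promoting complex. Aurkb ranged from 34.0 to 49.9 CPM in FoxK1 KD and from 51.4 to 64.6 CPM in DKD, with 46.4 to 74.3 CPM in Control. Here too the fold change moved with GC content, with a Spearman correlation of 0.601 across all tested genes and 0.789 across the 44. With the offset 1 gene was lower, Hmmr (-0.36), and 5 were higher, Aurkb (0.43), Ncapg (0.38), Bub3 (0.37), Kif23 (0.37) and Cdk1 (0.34), beside 3.99% of all tested genes lower and 6.72% higher, and the median was 0.07.

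**Figure D4:**
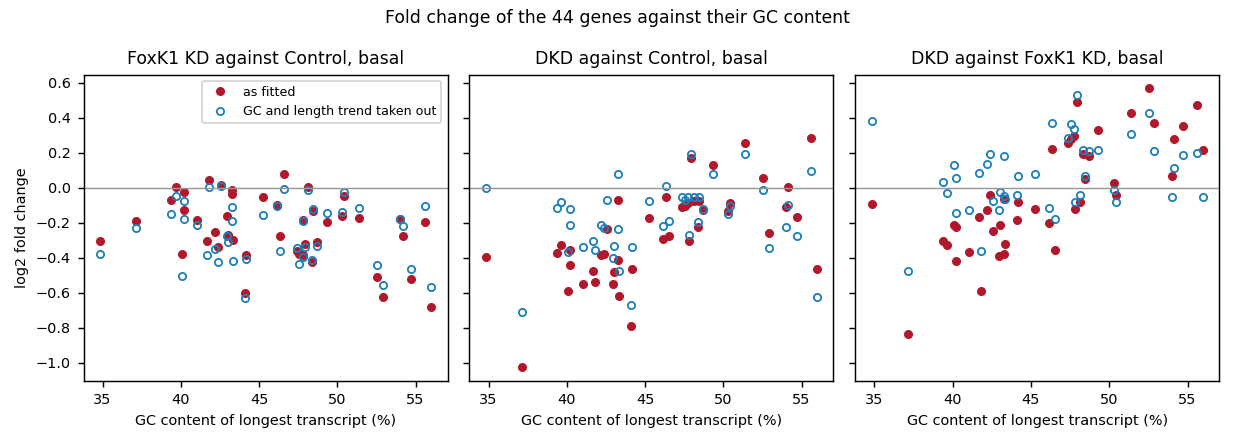
Log2 fold change (vertical axis) of the 44 genes against the GC content of their longest transcript in percent (horizontal axis) in 3 basal comparisons, as fitted (filled) and with each library's GC and length trend taken out (open). The filled points rise with GC content in DKD against FoxK1 KD (Spearman correlation 0.789) and fall in FoxK1 KD against Control (Spearman correlation -0.313).

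FoxK2 KD had no call in basal cells with edgeR, DESeq2 or limma-voom, beside 0.167% of all tested genes lower and 0.211% higher with edgeR. The median log2 fold change was -0.07 (range -0.46 to 0.22), and 7 of the 44 had an unadjusted p below 0.05, beside 11.2% of all tested genes. Without library 1 of basal Control the count was again 0 with edgeR, with 5 at an unadjusted p below 0.05. FoxK1 KD and FoxK2 KD were then compared directly. Cdk1 (-0.38, SE 0.10, edgeR adjusted p = 0.0214) and Ccnb1 (-0.38, SE 0.10, adjusted p = 0.0314) were lower in FoxK1 KD, in every library, and no gene was higher, beside 1.89% of all tested genes lower and 2.13% higher. Cdk1 ranged from 104 to 118 CPM in FoxK1 KD, from 124 to 165 in FoxK2 KD and from 127 to 172 in Control. The other 42 genes did not pass the test between the single knockdowns. Both calls were lost without FoxK1 KD library 4 and without library 2, 3 or 4 of FoxK2 KD, in 4 of 8 fits that left out 1 library. The Ccnb1 call was also lost without FoxK1 KD library 3 and without FoxK2 KD library 1.

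After insulin, FoxK1 KD had 5 genes lower than Control and none higher, beside 1.72% of all tested genes lower and 1.86% higher, and a median of -0.25. They were Mad2l1 (-0.45, SE 0.10), the microtubule-depolymerising kinesin gene Kif2c (-0.49, SE 0.11), the cytokinesis genes Anln (-0.37, SE 0.10) and Ect2 (-0.48, SE 0.13), and Bub1 (-0.40, SE 0.12). Kif2c ranged from 30.5 to 35.8 CPM in FoxK1 KD and from 43.7 to 50.4 CPM in Control. In 15 of the 44 every FoxK1 KD library lay below every Control library, as was so for 8.37% of all tested genes. In DKD the condensin gene Smc2 (-0.47, SE 0.11, edgeR adjusted p = 0.0269) and Top2a (-0.36, SE 0.09, adjusted p = 0.0471) were lower and none was higher, beside 0.343% of all tested genes lower and 0.871% higher. Smc2 ranged from 80.7 to 85.1 CPM in DKD and from 110 to 119 CPM in Control. The median in DKD was -0.27, 42 of the 44 were below 0, and every DKD library lay below every Control library for 24 of them, against 8.42% of all tested genes. Of these 24, 9 were among the 11 genes of kinesins, the spindle and cytokinesis. FoxK2 KD had no call with edgeR, DESeq2 or limma-voom, beside 0.0176% of all tested genes lower and 0.0088% higher with edgeR. Its median was -0.07, and 3 genes had an unadjusted p below 0.05 with edgeR, beside 6.03% of all tested genes. Leaving out library 1 of insulin Control took the count in FoxK1 KD from 5 to 0, and leaving out library 2 took it to 7. At an adjusted p below 0.05 Kif2c and Mad2l1 stayed called in 15 of 16 other fits, all but that without library 1. In DKD the count was 0 or 1 when any 1 library was left out.

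Over the 6 comparisons of a knockdown with Control 27 of the 44 genes were called at least once, always lower at this threshold. The share of all tested genes called at least once was not counted. In single comparisons the share called lower ran from 0.0176% in FoxK2 KD after insulin to 10.8% in basal DKD. The other 17 were never called, among them the cyclin genes Ccna2 and Ccnb2, Aurka, Cdc20, Bub1b, Ndc80, Prc1 and the proliferation marker Mki67.

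Insulin itself was then compared with the basal state within each genotype. In Control 3 of the 44 genes fell and 5 rose, beside 13.1% of all tested genes lower and 12.4% higher. Aurka, the centrosomal Aurora kinase gene, rose most (0.62, SE 0.13), from 30.5 to 42.7 CPM in basal libraries to 48.0 to 60.9 CPM with insulin, without overlap. Cdk1 (0.32), Ccna2 (0.33), Bub1 (0.33) and Anln (0.34) also rose, and Cdc25b (-0.36), Cenpe (-0.35) and Ndc80 (-0.53) fell. Without library 1 of basal Control, where Ndc80 stood at 92.4 CPM against 39.6 to 50.5 in the other 3, Ndc80 was at -0.23 (edgeR adjusted p = 0.198), and Bub1 and Ccna2 were no longer called. With only both groups in the model 1 gene was called, higher, beside 4.69% of all tested genes lower and 5.33% higher.

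In FoxK1 KD 6 genes fell and 6 rose with insulin, beside 15.4% of all tested genes lower and 16.2% higher. The risers were Cdk1 (0.63, SE 0.10), Incenp (0.57), Aurkb (0.57), Bub3 (0.51), Aurka (0.41) and Birc5 (0.33), and the other 6 were Hmmr (-0.53), Ndc80 (-0.45), Cdc25b (-0.40), Cenpf (-0.38), Cenpe (-0.36) and Kif2c (-0.35). Cdk1 ranged from 104 to 118 CPM in basal FoxK1 KD cells and from 166 to 193 CPM with insulin, so that these groups did not overlap. In FoxK2 KD 3 fell and 8 rose, beside 13.7% lower and 14.4% higher. Aurkb (0.67, SE 0.13), Aurka (0.62), Cdc25c (0.50), Incenp (0.49), Ncapd2 (0.32), Ccna2 (0.32), Bub1 (0.29) and Cdk1 (0.26) rose, and Cenpk (-0.59), Cenpe (-0.44) and Cdc25b (-0.32) fell. In DKD 4 fell and 4 rose, beside 7.99% lower and 8.31% higher. Bub1 (0.54, SE 0.12), Mad2l1 (0.50), Ccnb1 (0.37) and Ccna2 (0.35) rose, and Ndc80 (-0.55), Cdc25b (-0.48), Cenpa (-0.46) and Kif23 (-0.32) fell. Cdc25b, a phosphatase that starts mitotic entry, was thus lower with insulin in all 4 genotypes. Of the insulin calls, 1 of 8 in Control, 7 of 12 in FoxK1 KD, 5 of 11 in FoxK2 KD and 3 of 8 in DKD stayed in every other fit. Ccna2 in DKD stayed called in 6 of 16 other fits and Ndc80 in DKD in 10 of 16. Ndc80 in FoxK1 KD stayed called in 7 of 17 and Cdk1 in FoxK2 KD in 8 of 17. The medians of the 44 lay between 0.02 and 0.10 in the 4 genotypes. With the offset for GC content and length 3 were lower and 10 higher in FoxK1 KD (median 0.14), beside 13.4% and 16.8% of all tested genes, and 3 lower and 12 higher in FoxK2 KD (median 0.19), beside 13.5% and 15.1%. The Spearman correlation of the insulin effect with GC content across the 44 was 0.46 and 0.444 in these genotypes.

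**Figure D5:**
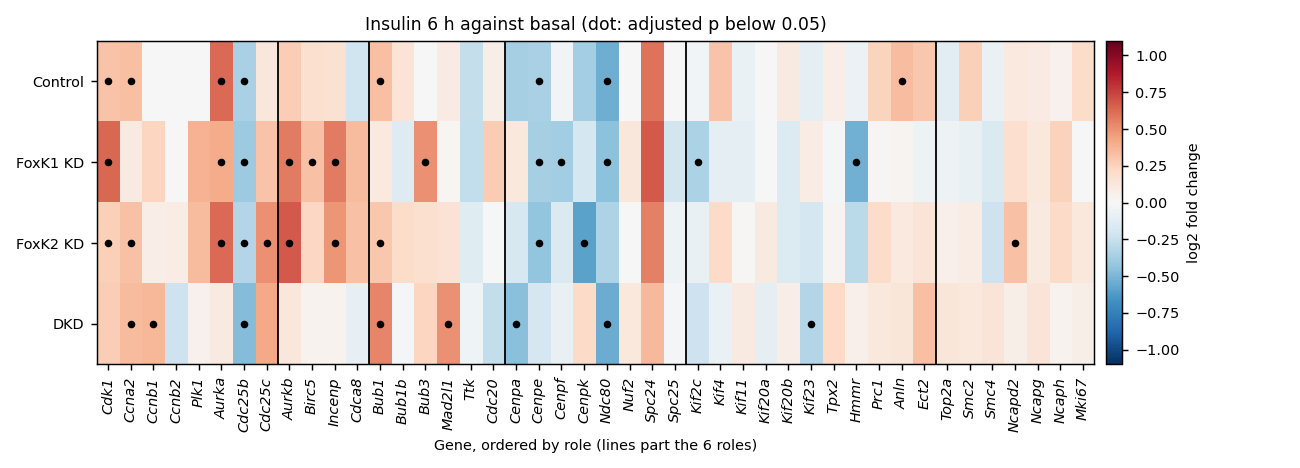
Log2 fold change with insulin against basal (colour, blue lower and red higher) of the 44 genes (horizontal axis, by role) in each genotype (vertical axis), with a dot where edgeR's adjusted p was below 0.05. Cdc25b has a dot in all 4 genotypes, at -0.36 in Control, -0.40 in FoxK1 KD, -0.32 in FoxK2 KD and -0.48 in DKD.

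The difference in the insulin effect between each knockdown and Control was tested as an interaction. No gene of the 44 was called in FoxK1 KD, FoxK2 KD or DKD with edgeR, DESeq2 or limma-voom, and 11, 2 and 5 of them had an unadjusted p below 0.05, beside 13.4%, 5.5% and 14.6% of all tested genes. Over all tested genes edgeR called 0% lower and 0% higher in FoxK1 KD, 0% lower and 0% higher in FoxK2 KD, and 0.537% lower and 1% higher in DKD. The median standard error of an interaction was 0.16 in FoxK1 KD and FoxK2 KD and 0.17 in DKD on the log2 scale. Bub3 had the lowest p in FoxK1 KD (0.51, SE 0.16, unadjusted p = 0.00297, adjusted p = 0.21), and Mad2l1 the lowest in DKD (0.42, SE 0.14, unadjusted p = 0.00468, adjusted p = 0.12). Without library 1 of basal Control edgeR again called 0 of the 44. The genes at an unadjusted p below 0.05 were then 6 in FoxK1 KD, 0 in FoxK2 KD and 5 in DKD. With only the groups compared they were 7, 1 and 2. The shares of all tested genes at that p were not counted in these fits.

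Of 73 other mitotic genes that could be tested, 12 were lower and none higher in basal FoxK1 KD, with a median of -0.16, and 18 were lower and none higher in basal DKD, with a median of -0.22. The shares of all tested genes were 4.71% lower and 3.39% higher in FoxK1 KD and 10.8% and 10.3% in DKD. With library 1 of basal Control left out, a fit of these lists chosen after seeing the data, 4 were lower and none higher in FoxK1 KD (20 at an unadjusted p below 0.05, median -0.17), and 28 lower and 2 higher in DKD (median -0.23). The shares of all tested genes were then 1.66% lower and 1.94% higher in FoxK1 KD and 13.9% and 13% in DKD. After insulin 4 were lower in FoxK1 KD and 1 in DKD, beside 1.72% and 0.343% of all tested genes. None was called in FoxK2 KD with edgeR in either state. In FoxK2 KD 9 in basal cells and 4 after insulin had an unadjusted p below 0.05, beside 11.2% and 6.03% of all tested genes. Pkmyt1, an inhibitory kinase of Cdk1, was at -0.87 in FoxK1 KD (edgeR adjusted p = 0.000555) and -0.09 in DKD (adjusted p = 0.736). Cenph, another centromere gene, was at -0.65 and -0.96, Wee1, which also inhibits Cdk1, at -0.29 and -0.52, the cohesin gene Rad21 at -0.10 and -0.37, and the kinetochore scaffold gene Knl1 at -0.05 and -0.70, and of these Cenph alone was called in both. Without library 1 Cenph was no longer called in FoxK1 KD (-0.44, edgeR adjusted p = 0.107), while Pkmyt1 was (-0.78, adjusted p = 0.00326). Among 15 subunits and activators of the anaphase-promoting complex, most of which are present throughout the cell cycle, 1 was lower in FoxK1 KD, Cdc16 (-0.28). In DKD Cdc27 (-0.32) was lower and Anapc2 (0.36) and Cdc26 (0.50) were higher. GC content was 39.85% for Cdc27, 55.19% for Anapc2 and 46.32% for Cdc26, against a median of 49.33% for all tested genes. Across all tested genes the fold change in DKD moved with GC content (Spearman correlation 0.466). These lists were not counted in the fits with the offset for GC content and length. Without library 1 the counts among these 15 were 0 in FoxK1 KD with edgeR, with 2 genes at an unadjusted p below 0.05, and 1 lower and 3 higher in DKD. The medians of these 15 were 0.04 and 0.06, and Fzr1 was at -0.40 in FoxK1 KD without passing the test (edgeR adjusted p = 0.0591).

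Of 26 regulators of mitotic gene transcription 4 were lower and 2 higher in basal FoxK1 KD, and 5 lower and 2 higher in basal DKD, beside 4.71% and 3.39% of all tested genes in FoxK1 KD and 10.8% and 10.3% in DKD. Without library 1 of basal Control edgeR called none of the 26 in FoxK1 KD, with 10 at an unadjusted p below 0.05. In DKD it called 6 lower and 5 higher, beside 13.9% and 13% of all tested genes. This list was not counted in the fits with the offset for GC content and length. The genes higher were Tfdp2 (0.40) and Rbl2 (0.33) in FoxK1 KD and Nfyb and Trp53 (both 0.26) in DKD, named after their values were seen, as are E2f1 (-0.64) and Trp53 (-0.30), lower in FoxK1 KD, and Mybl1 (-0.40), lower in DKD. Lin9, a subunit of the MuvB complex, was lower in both, at 48.0 ± 9.44 CPM (SD, n = 4) in Control, 33.9 ± 3.501 in FoxK1 KD (-0.49, edgeR adjusted p = 0.0116) and 33.5 ± 3.05 in DKD (-0.50, adjusted p = 0.00391), with all libraries of both knockdowns below all of Control. Without library 1 Control stood at 43.8 ± 5.57 (n = 3), and Lin9 was at -0.36 in FoxK1 KD, no longer called (adjusted p = 0.0835), and at -0.38 in DKD (adjusted p = 0.0166). In FoxK2 KD Lin9 was at -0.24 (adjusted p = 0.455). Lin54, the MuvB subunit that binds the CHR, was at -0.16 in FoxK1 KD and fell in DKD (-0.43, adjusted p = 0.00329). The pocket protein gene Rbl1 (-0.45) and the E2F partner gene Tfdp1 (-0.29) fell in DKD, and E2f8 (-0.39) in FoxK1 KD. Foxm1 was not called in any knockdown, at 76.3 ± 13.3 CPM in basal Control, 67.7 ± 8.12 in FoxK1 KD and 72.5 ± 5.41 in DKD. Mybl2 was not called in a knockdown either, at 11.6 ± 1.04, 11.4 ± 1.79 and 12.3 ± 2.50 CPM, but it rose with insulin in all 4 genotypes, by 1.16 (SE 0.15) in Control (1.13 without library 1), 0.80 in FoxK1 KD, 0.97 in FoxK2 KD and 0.55 in DKD on the log2 scale. The difference between DKD and Control in this rise was -0.61 (SE 0.23, edgeR adjusted p = 0.171).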

How the data were processed

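The authors deposited counts of reads per gene, 1 table for each of 30 libraries. Per the submitters' processing notes CASAVA 1.8, STAR 2.4.2a and featureCounts were used with GRCm38.p4. Read strand and filters are not given in the sources used here. Groups were taken from the labels. The members and gene lists were chosen with earlier results of these data known. Identifiers were matched to GENCODE M21, which held 48435 of 49089. Genes passing edgeR's filterByExpr, 11368 in all, were fitted with 1 quasi-likelihood model of 8 groups (edgeR 4.0.16, R 4.3.3, TMM factors), and p-values were adjusted by Benjamini-Hochberg with a threshold of 0.05. The steps were tested on simulated data. CPM used TMM-adjusted library sizes, and total counts of 2141460 to 5668270 set the precision for low genes.

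Values in every library are given for genes called the same way in 2 or more knockdowns in either state, and for the highest and lowest level per length. From each wider list up to 5 genes with the smallest adjusted p in basal FoxK1 KD or DKD are named, with Foxm1, Mybl2 and Lin9. Alternatives were DESeq2 1.42.0, limma-voom (limma 3.58.1), RLE factors, other count filters, only the groups compared, a replicate block, an offset for GC content and length, the study's thresholds, and leaving out each library. A fit without library 1 of basal Control and the other groups was added after seeing the data. Equal replicate numbers did not pair libraries. No 2 libraries of a group agreed within sampling noise (lowest chi-square per degree of freedom 1.737).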

Additional observations from a re-analysis of the deposited data

Results flagged for a closer look

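Over 204 sets of 4 libraries (34 quantities), 9 had a library whose gap to its nearest neighbour was over the 95% limit of Dixon's test. Chance gives this in about 1 in 20 sets. In FoxK1 KD, Smc2 stood at 116.5 CPM in basal library 2 (others 88.57 to 91.75) and at 100.1 CPM in insulin library 1 (others 87.63 to 88.34), and Ect2 at 110.5 CPM in insulin library 3 (others 83.51 to 88.1). In FoxK2 KD, Cenpf stood at 123.5 CPM in basal library 1 (others 91.22 to 95.53), Cenpk at 15.78 CPM in insulin library 3 (others 13.48 to 13.67) and Hmmr at 89.77 CPM in insulin library 4 (others 80.05 to 81.61). Tpx2 was low in FoxK2 KD insulin library 1, at 121.9 CPM (others 133.8 to 134.5). In basal DKD, Nuf2 stood at 62.65 CPM in library 4 (others 48.12 to 49.45) and Foxm1 at 80.57 CPM in library 2 (others 69.41 to 70.09).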

How the results depend on the processing

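When the model held no other groups than those compared, the number of the 44 genes called was 0 in basal FoxK1 KD, 9 in basal DKD, 0 in DKD after insulin and 1 for insulin in Control. The shares of all tested genes called lower were 0.139%, 6.16%, 0.0652% and 4.69%, and called higher 0.287%, 5.91%, 0.307% and 5.33%, in that order. In the same fit without library 1 of basal Control, chosen after seeing the data, the number of the 44 called was 1 in basal FoxK1 KD, 20 in basal DKD and 3 for insulin in Control. The shares of all tested genes were then 0.924%, 15.3% and 8.94% lower and 1.28%, 14.7% and 9.78% higher. The study's thresholds were an adjusted p below 0.25 and, for insulin effects, also a fold above 1.5. With these, 20 were lower in basal FoxK1 KD, beside 14.9% of all tested genes. In basal FoxK2 KD 6 were lower, beside 2.01%. In basal DKD 25 were lower and 2 higher, beside 22.4% and 21.2%. After insulin 21 were lower in FoxK1 KD and 12 in DKD, beside 7.51% and 2.97%. Between basal knockdowns it was then 27 for DKD against FoxK1 KD and 8 for FoxK1 KD against FoxK2 KD, and for insulin it was 2 in Control, 2 in FoxK1 KD, 3 in FoxK2 KD and 0 in DKD. With at least 1 count in any library the number of the 44 called was 2 in basal FoxK2 KD, beside 0.727% of all tested genes lower. With the offset for GC content and length it was 1 in basal FoxK2 KD, 12 in basal DKD, 1 in DKD after insulin and 6 for DKD against FoxK1 KD, and with offset and replicate block 1, 12, 1 and 7. With the offset alone the shares of all tested genes lower were 0.501%, 7.79%, 0.493% and 3.99%, in that order. Those higher were 0.475%, 8.14%, 1.15% and 6.72%. For insulin the offset gave 3 lower and 10 higher in FoxK1 KD and 3 lower and 12 higher in FoxK2 KD. Ncapg in basal DKD went to 0.0015 and 0.0118 on the log2 scale in the fits with the offset. The cause of these changes was not tested.

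Libraries of equal number did not deviate together (mean r -0.0134 over 99 pairs, against 0.00434 over 294 others), so the replicate block pairs nothing known. The block took the calls in DKD after insulin from 2 to 1 and in FoxK1 KD after insulin from 5 to 4.

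Leaving out 1 library at a time gave 5 to 16 calls in basal FoxK1 KD, 0 to 2 in basal FoxK2 KD and 12 to 21 in basal DKD. The lowest came without FoxK1 KD library 4 and Control library 3. After insulin the ranges were 0 to 7 in FoxK1 KD, 0 to 0 in FoxK2 KD and 0 to 1 in DKD. For insulin they were 4 to 9 in Control, 9 to 12 in FoxK1 KD, 6 to 10 in FoxK2 KD and 3 to 8 in DKD, and for the interactions 0, 0 and 0 to 1. DKD against FoxK1 KD gave 8 to 16, the lowest without FoxK1 KD library 2, and FoxK1 KD against FoxK2 KD 0 to 2. Of 93 single calls, DESeq2 kept 92, limma-voom 90 and RLE factors 93, all in the same direction.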
